A study of Homo sapiens with 8 samples.

Results

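CXCL8, CXCL1, CXCL2, CXCL3, IL6, IL1A, IL1B, TNF and LIF encode secreted inflammatory messengers, and their RNA was followed across a Lip-1 treatment of K562 cells. The 9 genes were picked by name out of 19447 in the count table. K562 is an established human erythroleukaemia line that came from a chronic myeloid leukaemia and carries the BCR-ABL1 fusion. Lip-1, which the labels do not spell out, commonly stands for liproxstatin-1, which traps lipid radicals and so blocks ferroptosis, and it came from Selleck. Wild-type K562 cells were given 20 µM Lip-1 for 24 h (1 library, replicate 1), 10 µM Lip-1 for 24 h (3 libraries, replicates 2 to 4) or no Lip-1 (4 control libraries, replicates 1 to 4). Treated libraries are labelled Day 1 and controls Day 0, so treatment and day cannot be told apart in any contrast with the controls.

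CXCL8 (interleukin-8) and CXCL1, CXCL2 and CXCL3 are ELR chemokines, which draw neutrophils through the receptors CXCR1 and CXCR2. IL-1 alpha, IL-1 beta and TNF switch on the transcription factor NF-kB in the cells they reach, IL-6 and LIF signal through the shared receptor subunit gp130, and the genes of most of these proteins are themselves switched on by NF-kB and AP-1. NF-kB waits in the cytoplasm bound to inhibitor proteins until kinases mark those for destruction, and many cytokine mRNAs carry AU-rich elements in the 3′ untranslated region that speed their decay.

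Total counts ran from 71151415 to 124240276 in the treated libraries and from 79063246 to 141307169 in the controls, so 3 counts correspond to 0.0212 to 0.0422 CPM (counts per 1000000 of a library's total). The 12 erythroid markers of K562 were high as a sum in every library, with HBG2 the highest of them on average. They summed to 4747 to 5832 CPM at 10 µM, 3412 CPM at 20 µM and 5135 to 8445 CPM in the controls. At 10 µM all libraries lay below all controls for KLF1 and HBG1 and above them for TFRC, and the other markers overlapped. In the 20 µM library GATA1, TAL1, KLF1, NFE2, TFRC, HBG1, HBG2 and EPOR lay below every 10 µM library, and HBE1 and ALAS2 above. Neutrophil markers summed to 0.309 to 1.00 CPM at 10 µM, 4.13 CPM at 20 µM and 0.101 to 1.46 CPM in the controls. ELANE and S100A12 were at 0 throughout, and CSF3R had 4.08 of the 4.13 CPM at 20 µM. Monocyte and macrophage markers summed to 20.1 to 109.5 CPM at 10 µM, 20.7 CPM at 20 µM and 19.1 to 126.6 CPM in the controls. Most of it was LYZ, and MARCO was at 0 throughout. In the 20 µM library CD14 (1.41 CPM) and MRC1 lay above every 10 µM library, and LYZ (18.8 CPM) and AIF1 below. The part of these cells in the results was not tested. The submitters named controls 1 and 4, the 20 µM library and 10 µM replicate 4 with letters and the others with digits, a naming pattern that the labels do not call a batch. Both letter-named controls lay above both digit-named controls for 6 of the 9 genes, against 36.6% of all genes tested, with mean ratios of 2.26 for CXCL8, 2.73 for CXCL2, 1.82 for CXCL3 and 1.96 for IL6.

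At 10 µM, 6 of the 9 genes rose against the controls by edgeR's quasi-likelihood test (adjusted p under 0.05), where 9.34% of the 14857 genes tested were called higher: CXCL8, CXCL2, CXCL3, IL6, IL1A and TNF. None fell, against 9.79% of all genes tested, and CXCL1, IL1B and LIF did not pass. In either direction 19.1% of genes were called. The median log2 fold change was 2.06 over the 9 genes and 0.05 over all genes tested. All 3 libraries at 10 µM lay above all 4 controls for 7 of the 9 genes (all but CXCL1 and IL1B), against 21.8% of all genes tested. With the 20 µM library included the same 7 genes had every treated library above every control, against 16.3% of genes. Because the 20 µM group holds 1 library, the filter on low counts asked for 0.125 CPM in 1 library. TNF and IL1A reached that in treated libraries alone, so they give no support to the counts of calls, the counts by order or the median. Of the other 7 genes, 4 were called. Without the 20 µM library the filter asked for 3 libraries, which left out TNF and IL1B. In that fit 5 of 7 genes were called higher, where 1435 of all 13197 genes tested were called higher and 1586 lower. IL1A was among the 5 and reached the minimum in the 10 µM libraries alone, so its call gives no support to the count of 5 either. CXCL8, CXCL3, IL6 and IL1A kept their calls with any 1 library left out, as did TNF wherever it was tested. In bulk RNA, more cells making a transcript and more transcript per cell cannot be told apart.

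**Figure D1:**
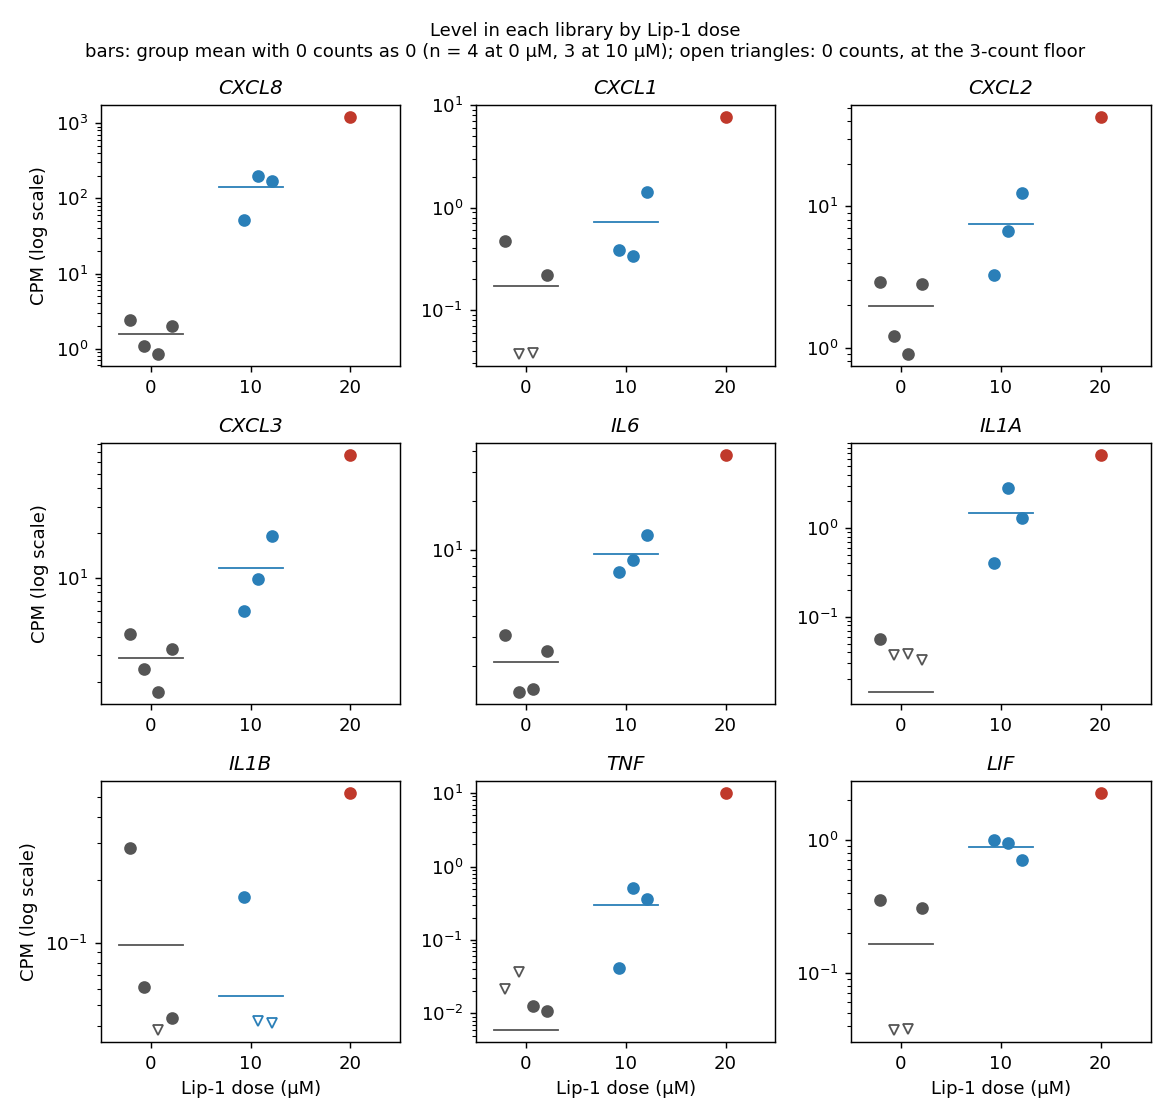
Level of each gene in CPM (log axis) in each of the 8 libraries, by Lip-1 dose in µM. Points are libraries, horizontal bars are group means and open triangles mark 0 counts at the 3-count floor. The 20 µM library lies above every 10 µM library for all 9 genes.

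CXCL8 had the highest level at 10 µM and, with IL1A, the largest fold changes of the 9 genes. It had 52.2, 198.7 and 169.1 CPM in 10 µM replicates 2, 3 and 4, against 2.40, 1.10, 0.847 and 1.99 CPM in controls 1 to 4. Every treated library lay far above every control, and 10 µM replicate 2 was the lowest of the 3. Its mean was 140.0 ± 77.5 CPM at 10 µM (SD, n = 3) and 1.58 ± 0.733 CPM in the controls (n = 4). The log2 fold change was 6.33 (SE 0.52, adjusted p = 0.000466), which ranked 30 of 14857 genes. Set against the control with the same replicate number, the level was 47.7, 234.5 and 84.8 times as high in replicates 2, 3 and 4. The gene lies on chromosome 4 at chr4:73740506-73743716 on the plus strand (hg38, GENCODE release 29).

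CXCL1, CXCL2 and CXCL3 lie in the same chemokine cluster as CXCL8, at chr4:73869393-73871242 (plus strand), chr4:74097035-74099293 and chr4:74036589-74038807 (both minus strand). CXCL2 had 3.25, 6.72 and 12.3 CPM at 10 µM, against 2.92, 1.21, 0.898 and 2.83 CPM in the controls. CXCL3 had 5.93, 9.87 and 19.0 CPM at 10 µM, against 4.19, 2.41, 1.69 and 3.30 CPM in the controls. CXCL1 had 0.387, 0.337 and 1.43 CPM at 10 µM, against 0.474, 0, 0 and 0.218 CPM in the controls. In CXCL2 and CXCL3 the lowest 10 µM library was above the highest control by a small margin, and in CXCL1 the groups overlapped. Replicate 4 was the highest of the 10 µM libraries in all 3 genes, and in 4 of the 9 genes in all, against 42.4% of genes tested.

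CXCL2 rose by a log2 fold change of 1.80 (SE 0.49, adjusted p = 0.0346) and CXCL3 by 1.87 (SE 0.38, adjusted p = 0.0115). CXCL2 lost its call without control 2 (adjusted p = 0.0809), control 3 (0.0763), 10 µM replicate 3 (0.0875) or 10 µM replicate 4 (0.150). The value for CXCL1 was 1.89 (SE 1.22, adjusted p = 0.321); with the replicate number as a block it was 3.92 (adjusted p = 0.00471) and passed, and without 10 µM replicate 4 it was 0.95 (adjusted p = 0.726). The coding sequences of CXCL1, CXCL2 and CXCL3 are 90.7% to 94.4% identical and each is 52.5% to 54.1% identical to that of CXCL8. Stretches of 75 bases that 2 of these transcripts share exactly made up 0.293% of CXCL1 and 0.262% of CXCL2, 2.01% of CXCL2 and 2.30% of CXCL3, and 0% between CXCL1 and CXCL3. Their counts are uncertain where the authors' counting divided shared reads.

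The promoter windows of 8 of the 9 genes were found in RefSeq (GRCh38.p14), and the 250 bases before the start are shown for the 6 genes below because several hold the same NF-kB and AP-1 letters. Capitals mark matches to the kB motif GGNNTTTCC and to the AP-1 motif TGANTCA, searched on both strands.
CXCL8 (chr4:73740319-73740568, plus strand): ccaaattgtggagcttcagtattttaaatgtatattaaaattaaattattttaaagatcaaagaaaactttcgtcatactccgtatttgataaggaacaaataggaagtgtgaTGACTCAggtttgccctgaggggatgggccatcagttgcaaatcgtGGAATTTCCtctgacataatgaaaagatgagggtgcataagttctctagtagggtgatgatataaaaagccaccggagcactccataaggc
CXCL1 (chr4:73869143-73869392, plus strand): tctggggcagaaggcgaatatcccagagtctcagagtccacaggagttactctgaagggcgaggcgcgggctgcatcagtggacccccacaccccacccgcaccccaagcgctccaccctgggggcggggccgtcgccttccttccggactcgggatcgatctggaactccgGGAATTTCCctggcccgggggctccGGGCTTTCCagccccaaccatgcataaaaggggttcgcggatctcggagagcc
CXCL2 (chr4:74099196-74099445, minus strand): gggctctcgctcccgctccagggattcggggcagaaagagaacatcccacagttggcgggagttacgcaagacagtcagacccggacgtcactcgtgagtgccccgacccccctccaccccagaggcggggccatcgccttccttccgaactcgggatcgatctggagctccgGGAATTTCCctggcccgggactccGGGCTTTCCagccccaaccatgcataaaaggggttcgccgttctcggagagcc
CXCL3 (chr4:74038690-74038939, minus strand): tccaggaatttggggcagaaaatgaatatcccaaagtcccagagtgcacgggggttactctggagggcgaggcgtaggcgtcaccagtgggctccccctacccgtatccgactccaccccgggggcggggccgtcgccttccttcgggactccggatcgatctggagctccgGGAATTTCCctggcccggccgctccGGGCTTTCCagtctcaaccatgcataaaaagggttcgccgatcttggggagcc
IL6 (chr7:22726950-22727199, plus strand): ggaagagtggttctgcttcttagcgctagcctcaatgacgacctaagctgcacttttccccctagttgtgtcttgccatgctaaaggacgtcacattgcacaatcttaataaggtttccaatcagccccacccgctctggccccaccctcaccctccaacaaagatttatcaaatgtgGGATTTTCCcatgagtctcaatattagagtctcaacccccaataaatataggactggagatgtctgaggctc
IL1A (chr2:112784494-112784743, minus strand, the first of its listed starts): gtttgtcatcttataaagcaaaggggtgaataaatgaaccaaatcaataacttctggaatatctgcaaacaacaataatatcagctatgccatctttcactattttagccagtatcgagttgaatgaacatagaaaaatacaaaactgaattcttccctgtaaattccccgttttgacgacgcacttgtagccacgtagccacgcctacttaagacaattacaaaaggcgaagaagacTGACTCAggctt

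The kB motif was present in 5 of the 8 windows (CXCL8, CXCL1, CXCL2, CXCL3 and IL6), against 5.48% of 35116 promoter windows of the same length. CXCL1, CXCL2 and CXCL3 each held 2 kB matches, at -78 to -70 and -53 to -45 in CXCL1 and CXCL3 and at -77 to -69 and -53 to -45 in CXCL2, counted from the first transcribed base. CXCL8 held a kB match at -91 to -83 and an AP-1 match at -137 to -131, and IL1A held an AP-1 match at -12 to -6. An AP-1 match was present in 6.57% of all windows. CXCL1 and CXCL3 windows were 81.4% identical over their alignment, CXCL1 and CXCL2 70.4%, and CXCL2 and CXCL3 73.3%. None of the 3 was more than 45.4% identical to the CXCL8 window. These are matches of letters and no binding was measured.

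IL6, a cytokine that signals through gp130, had 7.36, 8.76 and 12.4 CPM in 10 µM replicates 2, 3 and 4, against 3.09, 1.38, 1.44 and 2.45 CPM in the controls. All treated libraries lay above all controls, and the ratios to the same-numbered control were close to each other, at 5.34, 6.07 and 5.07. Its log2 fold change was 2.06 (SE 0.30, adjusted p = 0.00326). IL6 is at chr7:22725884-22732002 on the plus strand, and its exons overlap genes on the opposite strand, STEAP1B among them. The strand of counting is not given in the sources used here, so reads of the 2 strands cannot be told apart.

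LIF, leukaemia inhibitory factor, had 0.996, 0.942 and 0.702 CPM at 10 µM, against 0.354, 0, 0 and 0.305 CPM in the controls. The groups did not overlap, and controls 2 and 3 were the libraries at 0. The log2 fold change was 2.31 (SE 1.24, adjusted p = 0.233), and with the replicate number as a block it was 4.35 (adjusted p = 0.0359) and passed. LIF is at chr22:30240447-30246851 on the minus strand, and its exons overlap antisense transcripts, whose reads cannot be told apart.

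IL1A, which codes for IL-1 alpha, had 0.401, 2.80 and 1.29 CPM at 10 µM, against 0.0566, 0, 0 and 0 CPM in the controls. The 8 counts in control 1 were the only control counts, against 322 in the 3 libraries at 10 µM. Pooled over libraries, the ratio was 73.3 (exact 95% interval 36.7 to 171, counting error only). The log2 fold change was 6.22 (SE 1.14, adjusted p = 0.00780), and 5.35 (adjusted p = 0.0340) without 10 µM replicate 3. Without control 1 the remaining controls were at 0, so that the fitted value (9.94) is no bound. IL1A is at chr2:112773915-112784590 on the minus strand.

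IL1B, which codes for IL-1 beta and lies beside IL1A at chr2:112829751-112836903, was near the floor in both groups. It had 0.166, 0 and 0 CPM at 10 µM, against 0.283, 0.0616, 0 and 0.0436 CPM in the controls. The groups overlapped. The value of its log2 fold change was -0.89 (SE 1.81, adjusted p = 0.784), and without control 1 it was 0.53.

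TNF, the tumour necrosis factor gene at chr6:31575567-31578336, had 0.0415, 0.506 and 0.358 CPM at 10 µM, against 0, 0, 0.0126 and 0.0109 CPM in the controls. The controls held 2 counts in all and the 3 libraries at 10 µM held 65. The pooled ratio was 59.2 (exact 95% interval 15.7 to 499, counting error only). The log2 fold change was 5.41 (SE 1.04, adjusted p = 0.00899), with limma-voom the adjusted p was 0.0543, and without 10 µM replicate 3 the value was 4.76. TNF had 3 counts in 10 µM replicate 2, and the rest of its 10 µM counts were in replicates 3 and 4.

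**Figure D2:**
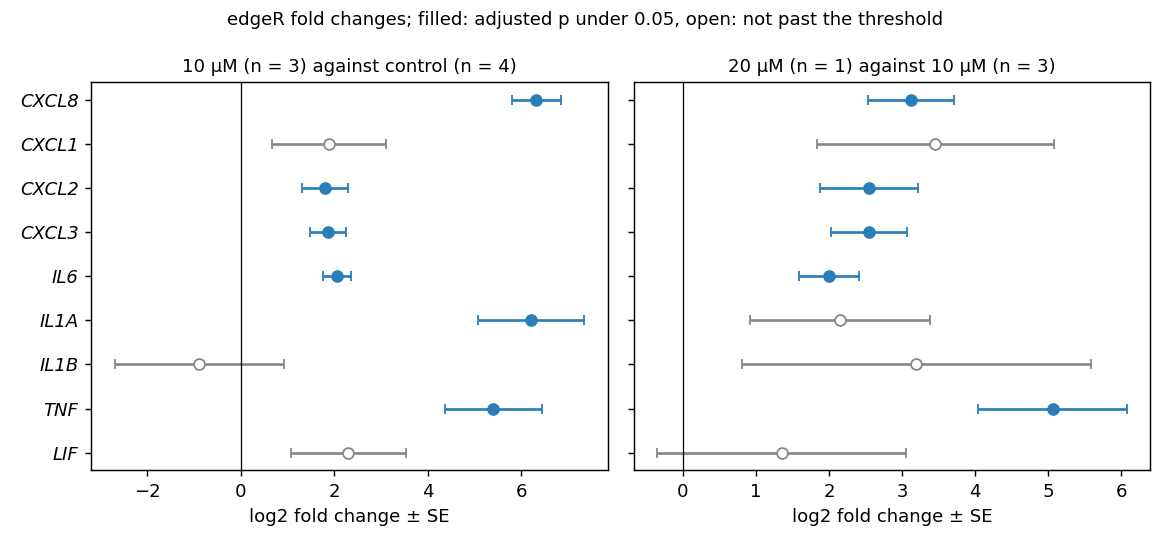
Log2 fold change ± SE of the 9 genes from edgeR, at 10 µM against control (left) and at 20 µM against 10 µM (right). Filled points passed an adjusted p of 0.05; 6 did on the left and 5 on the right.

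Per length of the annotated exons, the order of the genes changed with treatment. At 10 µM, CXCL8 led with 61.6 ± 34.1 RPKM (counts per kilobase of exon over the library's total, SD, n = 3), above CXCL3 at 5.23 ± 3.02, CXCL2 at 4.96 ± 3.06 and IL6 at 4.60 ± 1.26. The order of those 3 differed between the 10 µM libraries. In the controls, CXCL2 had 1.31 ± 0.708, CXCL3 1.31 ± 0.488, IL6 1.01 ± 0.399 and CXCL8 0.696 ± 0.322 RPKM (n = 4). These SDs are between libraries, and CXCL8 was the lowest of these genes in every control. The remaining 5 genes were each under 1 RPKM on average in both groups.

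The single 20 µM library lay above every 10 µM library for each of the 9 genes, where it did so for 40.4% of all genes tested. For the 9 genes it was also above every control. It had 1222 CPM of CXCL8 (exact 95% interval 1216 to 1228, counting error only), 43.2 of CXCL2, 67.4 of CXCL3 and 7.76 of CXCL1. It had 38.0 CPM of IL6, 10.1 of TNF, 6.71 of IL1A, 2.26 of LIF and 0.523 of IL1B. CXCL8 was 8.73 times its 10 µM mean there, and TNF counts pooled over libraries gave 33.6 times (26.2 to 43.8).

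Against 10 µM, 5 of the 9 rose, where 11.7% of all genes tested were called higher, 14.6% lower and 26.3% in either direction: CXCL8 by a log2 fold change of 3.13 (SE 0.59, adjusted p = 0.00548), CXCL3 by 2.55 (0.00764), IL6 by 2.00 (0.00766), TNF by 5.06 (0.00735) and CXCL2 by 2.55 (0.0219), all with edgeR. CXCL1 had 3.45 (0.150), IL1B 3.19 (0.364), IL1A 2.15 (0.236) and LIF 1.35 (0.599). CXCL2 lost its call without 10 µM replicate 2 (adjusted p = 0.0517) or replicate 3 (0.0655). With the replicate number as a block the called values were 2.47 for CXCL8, 1.96 for CXCL3, 1.25 for IL6, 1.82 for CXCL2 and 7.91 for TNF, all still past the threshold. CXCL1 then had 0.04, IL1A -3.20 and LIF -1.75, none of them past it. The 20 µM dose rests on 1 library, which the fit assumes to vary like the others. Over all treated libraries against controls, 5 of 7 genes tested rose (7.47% of 13101 genes were called higher, 6.69% lower and 14.2% in either direction). IL1A, 1 of the 5, reached the filter's minimum in treated libraries alone, so its call gives no support to that count. Leaving out controls 1 to 4 in turn brought that count to 3, 1, 0 and 1. Of all genes tested, 291 of 13301, 82 of 13446, 43 of 13479 and 155 of 13384 were then called higher. Without 10 µM replicate 4 the count was 2, where 192 of 13362 genes were called higher.

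The 3′ untranslated regions of all 9 genes held more AUUUA per kilobase than the median of 14230 tested genes (1.43). The density was 14.0 in IL6, 13.9 in CXCL2, 11.3 in TNF, 10.4 in CXCL3, 9.84 in IL1B, 7.19 in CXCL8, 7.08 in CXCL1, 4.34 in IL1A and 2.18 in LIF. The longer AU-rich element UUAUUUAUU was present in 7 of the 9, all but IL6 and IL1A, and in 7.75% of genes. CXCL2 and TNF each held 5 copies, and 0.155% of genes held as many or more.

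**Figure D3:**
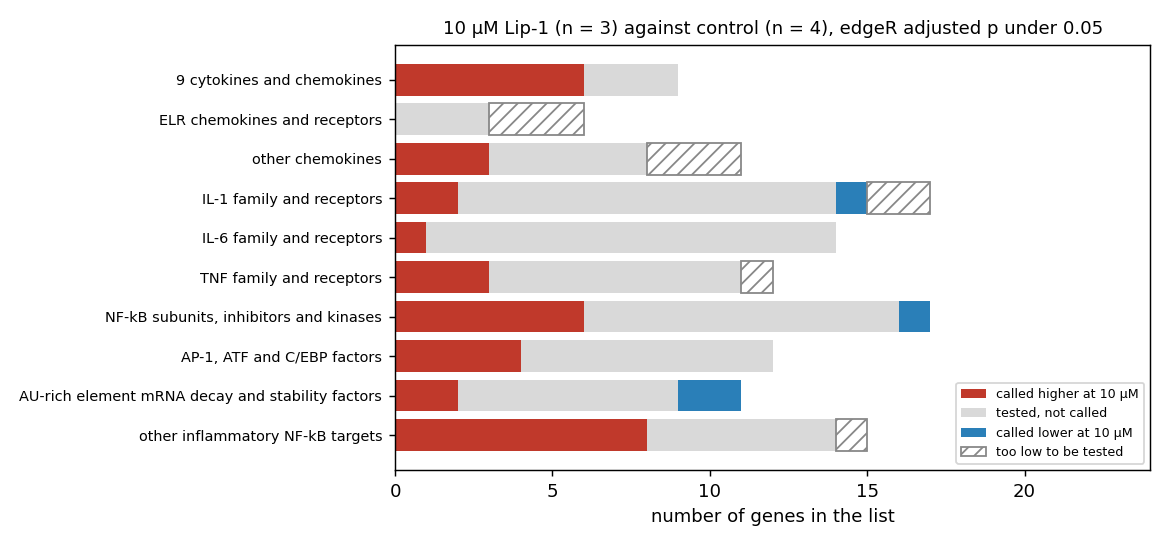
Number of genes called higher (red), lower (blue) or not called (grey), and too low to be tested (hatched), at 10 µM against control by edgeR (adjusted p under 0.05), in the 9 genes and 9 related gene lists. The list of other NF-kB targets had 8 of 14 called higher and the ELR chemokines and receptors 0 of 3.

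Of 6 receptors and other ELR chemokines, 3 were too low to be tested and the other 3 were not called. CXCL6, CXCR1 and CXCR2 were left out by the filter, and CXCL5, PPBP and ACKR1 averaged at most 0.125 CPM at 10 µM. Among 11 other chemokines, 8 were tested and 3 were called higher, where 9.34% of all genes were. The median log2 fold change was 4.47 (2.70 with the genes at 0 in all controls set to their bound). CXCL9, CXCL10, CCL2, CCL3 and CCL4 reached the filter's minimum in treated libraries alone, so neither the count nor the median supports a rise of the list. CXCL10, a ligand of CXCR3, averaged 4.22 ± 6.77 CPM at 10 µM (n = 3), against 0.0225 ± 0.0271 CPM in the controls (n = 4). Its log2 fold change was 7.17 (adjusted p = 0.0141), or 3.50 without 10 µM replicate 4. CCL3 was at 0 in all controls and averaged 0.285 ± 0.297 CPM at 10 µM, with the lowest 10 µM library at 0. That mean was 8.85 times the mean 3-count floor of the controls, a lower bound on the ratio to them. CCL5 had 1.27 ± 1.94 CPM at 10 µM, against 0.0444 ± 0.0749 CPM in the controls (4.38, adjusted p = 0.0493). Its value was 1.33 (adjusted p = 0.486) without 10 µM replicate 4 and 6.92 without control 1, and it lost its call without controls 2, 3 or 4, without 10 µM replicates 3 or 4, and without the 20 µM library. CCL3 lost its call without controls 2, 3 or 4 or without 10 µM replicates 2 or 4. The count in this list was 1 without any of controls 2, 3 and 4, 10 µM replicate 4 and the 20 µM library, and 0 with DESeq2, limma-voom or a filter of 1 CPM in 3 libraries. CXCL10 lost its call with limma-voom (adjusted p = 0.143).

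Of the receptors and signalling genes of the IL-1, IL-6 and TNF families, those called higher were 2 of 15, 1 of 14 and 3 of 11 tested, where 9.34% of all genes were. In the IL-1 list, 2 of 15 tested were called higher and 1 lower, with a median of 0.58. IL36G, not called, reached the filter's minimum in the 20 µM library alone, so it gives no support to that median. IRAK4 had 0.58 (adjusted p = 0.00596), IRAK2 1.11 (0.0317) and IRAK1 -0.52 (0.0185), all of them kinases that relay the IL-1 receptor. In the IL-6 list 1 of 14 was called, IL6R, the ligand-binding receptor chain of IL-6, with 3.02 (adjusted p = 0.000652). IL6R averaged 2.33 ± 0.422 CPM at 10 µM and 0.261 ± 0.0837 CPM in the controls. With the replicate number as a block, the calls were 4 higher and 1 lower in the IL-1 list and 6 higher and 1 lower in the IL-6 list. In that fit 2406 of all 14857 genes were called higher and 2251 lower. In the TNF list 3 of 11 were called higher, with a median of 0.53. They were TNFSF9, TNFSF14 and ADAM17, the enzyme that sheds TNF from the cell surface. LTA, not called, reached the filter's minimum in treated libraries alone, so it gives no support to that median. With the block 4 of the TNF list were called higher and 2 lower. Leaving out 10 µM replicate 3 or replicate 4 brought the calls to 1 higher and 0 lower in the IL-1 list and to 1 higher in the TNF list, and without control 2 the IL-1 list also had 1. The IL-6 list had 2 without control 1, control 2, 10 µM replicate 2, 10 µM replicate 4 or the 20 µM library, and IL6R kept its call each time.

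Of 17 NF-kB genes, 6 were called higher and 1 lower at 10 µM, where 9.34% of all genes were called higher and 9.79% lower, with a median log2 fold change of 0.32. The called-higher genes are NFKB2 and RELB, which make subunits of the alternative pathway, NFKBIA, CYLD and TNFAIP3, which restrain the pathway, and NFKBIZ, a nuclear member of the inhibitor family. NFKB2 had 31.7 ± 3.23 CPM at 10 µM, against 12.6 ± 1.24 CPM in the controls (1.20, adjusted p = 0.000490). NFKBIA had 42.9 ± 4.43 CPM at 10 µM, against 16.2 ± 1.82 CPM in the controls (1.27, adjusted p = 0.00132). RELA and NFKB1, the usual subunits, named here after their values were seen, had -0.01 (0.979) and -0.08 (0.696) at 10 µM. In the single 20 µM library against 10 µM their values were 1.02 and 1.10. Without control 2, control 3, 10 µM replicate 3 or 10 µM replicate 4 the count of lower genes was 0. At 20 µM against 10 µM, 12 of the 17 were called higher, where 11.7% of all genes were, and the median was 1.36. RELB lost its call at 10 µM without 10 µM replicate 4 (adjusted p = 0.0515).

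The JUN and FOS proteins among the AP-1, ATF and C/EBP factors bind the AP-1 motif shown above. In this list 4 of 12 genes were called higher at 10 µM, with a median of 0.53. Of all genes, 9.34% were called higher and 9.79% lower. With the block 6 of the list were called higher, where 2406 of all 14857 genes were called higher and 2251 lower. ATF3 had 40.3 ± 22.0 CPM at 10 µM, against 5.89 ± 3.28 CPM in the controls (2.65, adjusted p = 0.00607), and JUN and CEBPG passed. Of the 11 factors that act on AU-rich elements, 2 were called higher, ZFP36 (0.59, adjusted p = 0.0323) and ZFP36L1 (0.90, 0.0158), which bind those elements and lead to decay, and 2 lower, among them KHSRP (-0.42, 0.0202). Their median was -0.16, and without 10 µM replicate 3 or replicate 4 the counts were 0 higher and 0 lower. Leaving out control 1, 3 or 4 gave 1 higher, control 3 or 4 gave 1 lower and control 2 gave 0 lower. JUN also lost its call without 10 µM replicate 3 (adjusted p = 0.0576) or replicate 4 (0.0541). Of the 14 other NF-kB targets tested, 8 were called higher, with a median of 2.04. CSF2 and CSF3, neither of them called, reached the filter's minimum in treated libraries alone, so they give no support to that median. CSF1, the macrophage growth factor, had 36.8 ± 8.20 CPM at 10 µM, against 10.1 ± 2.39 CPM in the controls (1.74, adjusted p = 0.00105) and BIRC3, an inhibitor of apoptosis, had 2.68 (0.00384).

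**Figure D4:**
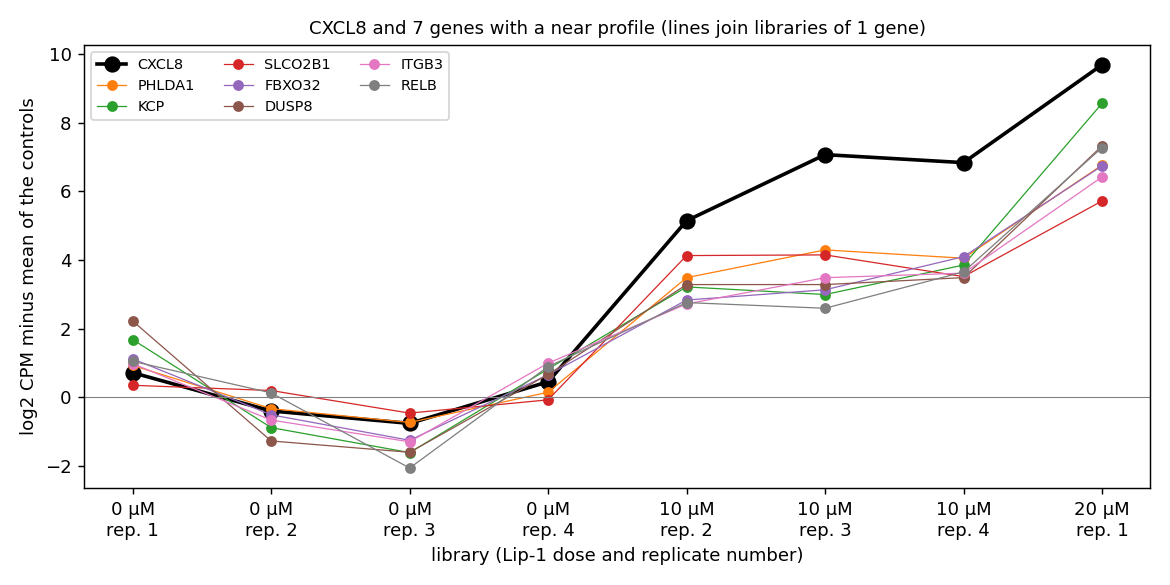
Log2 CPM minus the control mean for CXCL8 and 7 genes with a near profile, in the 8 libraries. Points are libraries and lines join those of 1 gene; CXCL8 (black) stands above the others in every treated library.

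Genes whose profile over the 8 libraries came near to that of CXCL8 were chosen from 10678 genes by the root mean square of the difference in log2 CPM relative to the control mean. They were PHLDA1 (1.84), KCP (2.02), SLCO2B1 (2.16), FBXO32 (2.17), DUSP8 (2.19), ITGB3 (2.25) and RELB (2.35), all in log2 units and none closer than 1.84. Likeness over these 8 libraries is a description, which no test supports. Among the other 8 cytokines and chemokines, which were not held to the expression minimum, IL1A was nearest at 1.06, then TNF at 2.12, and IL1B farthest at 5.25. PHLDA1 averaged 38.9 ± 10.5 CPM at 10 µM and 2.69 ± 1.41 CPM in the controls.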

How the data were processed

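RNA of K562 cells was extracted with Trizol, depleted of ribosomal RNA with biotinylated probes, fragmented and copied with random primers, per the labels' protocols. The authors deposited a table of whole-number counts per gene and library. The hg38 build, StringTie, HISAT2, limma, DESeq2 and bcl2fastq 2.0 are named in the submitters' processing notes, with no role given. Low values were not spaced like single reads (401 entries at 1 count, 2958 at 4), which limits what a floor means. Another 9 lines had no gene name and were dropped.

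CPM was computed here as the count per 1000000 of the library's total. R 4.3.3 with edgeR 4.0.16 was used (filterByExpr, TMM, quasi-likelihood test, two-sided, Benjamini-Hochberg adjustment over all genes tested, threshold 0.05), in a fit with 3 dose levels and in a fit of treated against control. DESeq2 1.42.0 and limma 3.58.1 were alternatives, and the test was checked on simulated data. An adjusted p given beside a gene is edgeR's unless another tool is named. Floors are 3 counts, and intervals cover counting error only. RPKM uses exon unions of GENCODE release 29. The labels do not say that replicates are separate cultures, so p-values measure the spread between these samples, which may be technical.

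Same-numbered libraries deviated together from their group means across 10679 genes (r = 0.24, 0.462 and 0.595 for 10 µM replicates 2 to 4), all above the limit of 0.1 set for taking the numbers as pairs. Other libraries of the same name class correlated about as well (10 µM replicate 2 with control 3 at 0.26, replicate 3 with control 2 at 0.412, replicate 4 with control 1 at 0.449), so the numbers and the name classes are not separated by this. A fit with the replicate number as a block was an alternative. Named genes are the 9 genes, the 3 of each list with the smallest p at 10 µM, and the 8 nearest CXCL8; others are named as such, and 1 gene that the rule names is not reported here. The 9 genes and all lists were chosen with earlier results of these data known.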

Additional observations from a re-analysis of the deposited data

Results flagged for a closer look

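IL1A was listed at 0 in 3 of the 4 controls and had 8 counts in control 1, so the gap between control 1 and the others was the whole range of the group (a gap over range of 1, above Dixon's critical value for 4 samples). With the others at 0 that ratio is 1 for any count in control 1, so the zeros fixed the flag. Chance flags about 1 in 20 groups without such ties, and 9 groups were looked at. Control 1 was also the most deeply counted library, and the part of depth in this value was not tested.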

How the results depend on the processing

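Across 10 µM against control, 6 genes of the 9 were called and the count lay between 4 and 8 under every alternative run, and for 20 µM against 10 µM 5 were called and the count lay between 4 and 7. With the replicate number as a block, 4657 genes were called at 10 µM against 2842 without it (2793 shared), 8 of the 9 among them, and over all treated libraries 2815 against 1855. The block changed no other call of the 9 genes than those of CXCL1 and LIF at 10 µM and CXCL1 over all treated libraries (4.00, adjusted p = 0.0207). With the library name class as a covariate the counts of genes were 4665 and 3348, with DESeq2 over all treated libraries 3395, and with the digit-named libraries alone 3137. Leaving out 1 library at a time gave 1364 to 3021 genes at 10 µM, 64 to 3021 over all treated libraries, and 0 to 6 of the 9 genes there; limma-voom gave 3 of the 9. Reversed values were CXCL5 with limma-voom (-0.15) and, leaving out 1 library at a time, some values of CXCL5 (-5.39 to 2.71), PPBP (-1.55 to 0.99), ACKR1 (-0.22 to 0.70) and IL1B (-6.28, with the remaining 10 µM libraries at 0, to 0.53, positive only without control 1), all at 10 µM, and at 20 µM against 10 µM IL1A with the block (-3.20) and LIF with the block (-1.75) or the name class (-1.24). The cause was not tested. Counts at or below the 3-count floor limit IL1A, IL1B, TNF, LIF and CXCL1.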
